A study of Mus musculus with 41 samples.

Results

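The genes described here are 8 named genes of cholesterol metabolism, Hmgcs1, Idi1, Fdps, Fdft1, Sqle, Lss, Cyp51 and Insig1, taken by name from 50763 genes in the deposited count table and 41075 entries in the deposited TPM table (TPM is a level corrected for gene length and library depth). They were measured by RNA-seq of poly(A) RNA in 6 sorted B cell subsets of mice aged 3 to 5 months. Libraries labelled 1Mek2 came from mice with floxed Mek1 alleles, 1 null allele of Mek2 and Vav1-iCre, a Cre driver that works across blood cell lineages rather than in B cells alone; wt libraries came from mice labelled wild-type. Each genotype had 4 libraries of germinal centre (GC) and of Follicular B cells and 3 of Immature cells, age-associated B cells (ABC), MarginalZone and Plasma cells. That made 40 libraries of 16 animals; the Immature library of animal 565, which is labelled 1Mek2 but whose column name carries Mek1ff, was kept out of every comparison. The GC library of the same animal (GC wt replicate 4) carries the same name but is labelled wt, and it was kept as wt. The same 40 libraries served all comparisons below, so the comparisons with Follicular cells share their Follicular libraries.

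Libraries are called 1Mek2 or wt by their labels throughout. Map2k1, the gene of MEK1, had 54.3 to 141 TPM in Immature libraries labelled 1Mek2 and 144 to 173 TPM in Immature wt libraries, but 122 to 143 TPM in GC libraries labelled 1Mek2 and 107 to 186 TPM in GC wt libraries, and Map2k2, the gene of MEK2, overlapped between the genotypes in GC and Immature cells. In ABC cells Map2k1 averaged 66.2 ± 97.7 TPM in 1Mek2 and 11.9 ± 16.1 TPM in wt libraries (SD, n = 3 each). In MarginalZone cells Map2k1 had 16.0 to 44.6 TPM in 1Mek2 and 55.5 to 214 TPM in wt libraries, while Map2k2 was higher without overlap in 1Mek2 libraries, at 120.4 to 196 TPM against 46.5 to 98.0 TPM in wt libraries. Summed TPM of 7 GC markers was 1424 to 3085 in GC libraries and at most 1092 in every other group. Summed TPM of 6 plasma cell markers was 7437 to 10530 in Plasma libraries. That of 7 markers of immature B cells was 782.5 to 1705 in Immature libraries against 301.7 to 2108 in ABC wt libraries. Rag1, Rag2 and Igll1 were near 0 in the ABC wt libraries. Other groups reached that Immature range too, with up to 984.6 in GC wt and 1087 in Follicular 1Mek2 libraries. Summed TPM of 5 Follicular markers was 1225 to 5714 in Follicular 1Mek2 and 1811 to 6005 in Follicular wt libraries. It was 3252 to 3933 in Immature wt libraries. In ABC 1Mek2 libraries the same sum was 213.8 to 5644. For 6 ABC markers the sums were 53.37 to 441.1 in ABC 1Mek2 and 160.5 to 297 in ABC wt libraries. They reached 71.78 in Follicular 1Mek2, 277 in MarginalZone 1Mek2, 260.4 in MarginalZone wt and 210.6 in Plasma wt libraries. The gate used for ABC cells is not stated in the labels. A library held 7883989 to 34925667 reads assigned to gene spans. In bulk RNA, fewer cells of a type and less RNA per cell cannot be told apart. Among the libraries of ABC, Follicular, MarginalZone and Plasma cells, a set of 7 libraries was defined on the first principal component of 3856 genes, which held 26.6% of the variance. The set holds the libraries of the 5 animals (358, 487, 636, 666 and 671) whose mean score was above 0, 19.1 to 81.7, against -20.3 to -3.20 for the other animals. Single libraries ran on with little gap, from 14.3 upward in the 7 and up to 11.8 in the other 19. That set was found from the values, not from any label, and results are given without it where a call changes.

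Cells make cholesterol from acetyl-CoA through the mevalonate pathway. The pathway also supplies isoprenoids, the lipids attached to small GTPases. When sterols in the endoplasmic reticulum run low, SCAP escorts the SREBP transcription factors (genes Srebf1 and Srebf2) to the Golgi, where they are released to switch on most of the genes of the pathway. Hmgcs1 makes HMG-CoA, Idi1 interconverts the isoprene units, Fdps joins them into farnesyl diphosphate, Fdft1 condenses farnesyl diphosphate to squalene, Sqle oxidises squalene, Lss closes the ring to lanosterol and Cyp51 demethylates lanosterol. Insig1 holds SCAP and SREBP back in the endoplasmic reticulum. None of the 8 genes is itself an uptake gene.

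On GRCm39, the build of the deposited coordinates, Hmgcs1 lies at chr13:120151887-120169796 on the plus strand and Idi1 at chr13:8935642-8942432 on the plus strand. Fdps lies at chr3:89000895-89009274 on the minus strand, Fdft1 at chr14:63382599-63419136 on the minus strand and Sqle at chr15:59186941-59203042 on the plus strand. Lss lies at chr10:76367303-76392973 on the plus strand, Cyp51 at chr5:4130674-4154697 on the minus strand and Insig1 at chr5:28276410-28283660 on the plus strand. The span of Insig1 lies inside that of the antisense gene Gm35223, and Insig1 had 0 counts in every column of the count table while Gm35223 had 732, so Insig1 is described from reads on its exons, recovered from TPM. Fdft1 overlaps Ctsb on the opposite strand, which had 338928 counts over all libraries, against 28364 for Fdft1. Lss overlaps the antisense gene 4930483K19Rik, which had 5 counts. Whether reads were assigned by strand is not stated, so how reads in such overlaps were counted is not known. In ABC wt replicate 2 alone Insig1 had 2192 exon reads, more than all counts of Gm35223. At least part of the Insig1 reads are thus in the counts of neither gene. For Lss, exon reads came to 143% to 318% of its counts in every subset (3429 exon reads against 1078 counts in GC cells), so the count table does not hold all its reads and its tests on counts are uncertain.

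RefSeq promoter windows (build GRCm38.p6, the 250 bases before the gene start, read on the gene's strand) matched 5 of the 8 genes. They are shown because the genes are textbook SREBP targets. Capitals mark matches on either strand to TCACNCCAC, a form of the sterol regulatory element, and to CCAAT, the box bound by NF-Y; no match of one overlapped a match of the other. The windows of Hmgcs1 (chr13:119690101-119690350, plus strand), Idi1 (chr13:8885356-8885605, plus strand) and Cyp51 (chr5:4104698-4104947, minus strand) were:
Hmgcs1: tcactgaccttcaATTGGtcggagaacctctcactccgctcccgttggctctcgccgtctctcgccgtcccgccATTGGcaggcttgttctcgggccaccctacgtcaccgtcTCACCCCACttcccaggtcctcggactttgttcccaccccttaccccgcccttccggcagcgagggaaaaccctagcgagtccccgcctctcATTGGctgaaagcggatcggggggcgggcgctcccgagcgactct
Idi1: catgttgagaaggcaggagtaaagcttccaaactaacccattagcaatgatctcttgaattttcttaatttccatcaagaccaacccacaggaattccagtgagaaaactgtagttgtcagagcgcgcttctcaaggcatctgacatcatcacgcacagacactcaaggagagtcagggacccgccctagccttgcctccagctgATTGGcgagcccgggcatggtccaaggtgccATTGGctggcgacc
Cyp51: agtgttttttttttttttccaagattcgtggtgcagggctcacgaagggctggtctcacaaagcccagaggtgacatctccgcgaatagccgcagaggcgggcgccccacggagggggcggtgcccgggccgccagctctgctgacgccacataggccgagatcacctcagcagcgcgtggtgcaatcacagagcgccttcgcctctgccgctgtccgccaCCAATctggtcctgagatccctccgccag
TCACNCCAC was found in 1 of the 5 windows, that of Hmgcs1 at position -137 from the gene start, and in 1.05% of all 32851 windows of this length. CCAAT was found in 5 of the 5 windows and in 33.8% of all windows. Hmgcs1 had 3 CCAAT matches, at -237, -176 and -45, and Idi1 had 2, at -45 and -14. Cyp51 had 1 at -29, Lss 1 at -62 and Insig1 1 at -216. These matches describe letters in the windows and say nothing of binding in these cells.

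By TPM, which covers exons only, most of the genes were highest in GC cells, next in Immature cells, and lower in Follicular, Plasma and MarginalZone cells. By the mean of the 2 genotype means, GC cells ranked first for 6 of the 8 genes. Fdps was the most abundant, with 140 TPM in GC and 116 TPM in Immature cells, and Sqle had 79.3 TPM in GC and 36.4 TPM in Immature cells. Hmgcs1 had 54.5 TPM in GC and 40.2 TPM in Immature cells. Idi1 had 13.6 TPM in GC and 8.58 TPM in Immature cells, and the levels of Fdft1 and Lss were low everywhere, with GC means of 7.47 and 7.73 TPM. Cyp51 and Insig1 were the exceptions, with their highest means in ABC cells (49.9 and 63.2 TPM) ahead of GC cells (41.3 and 22.0 TPM). Those ABC means rested on single libraries: the ABC medians were 23.8 TPM for Cyp51 and 8.97 TPM for Insig1, against GC medians of 40.9 and 21.9 TPM.

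**Figure D1:**
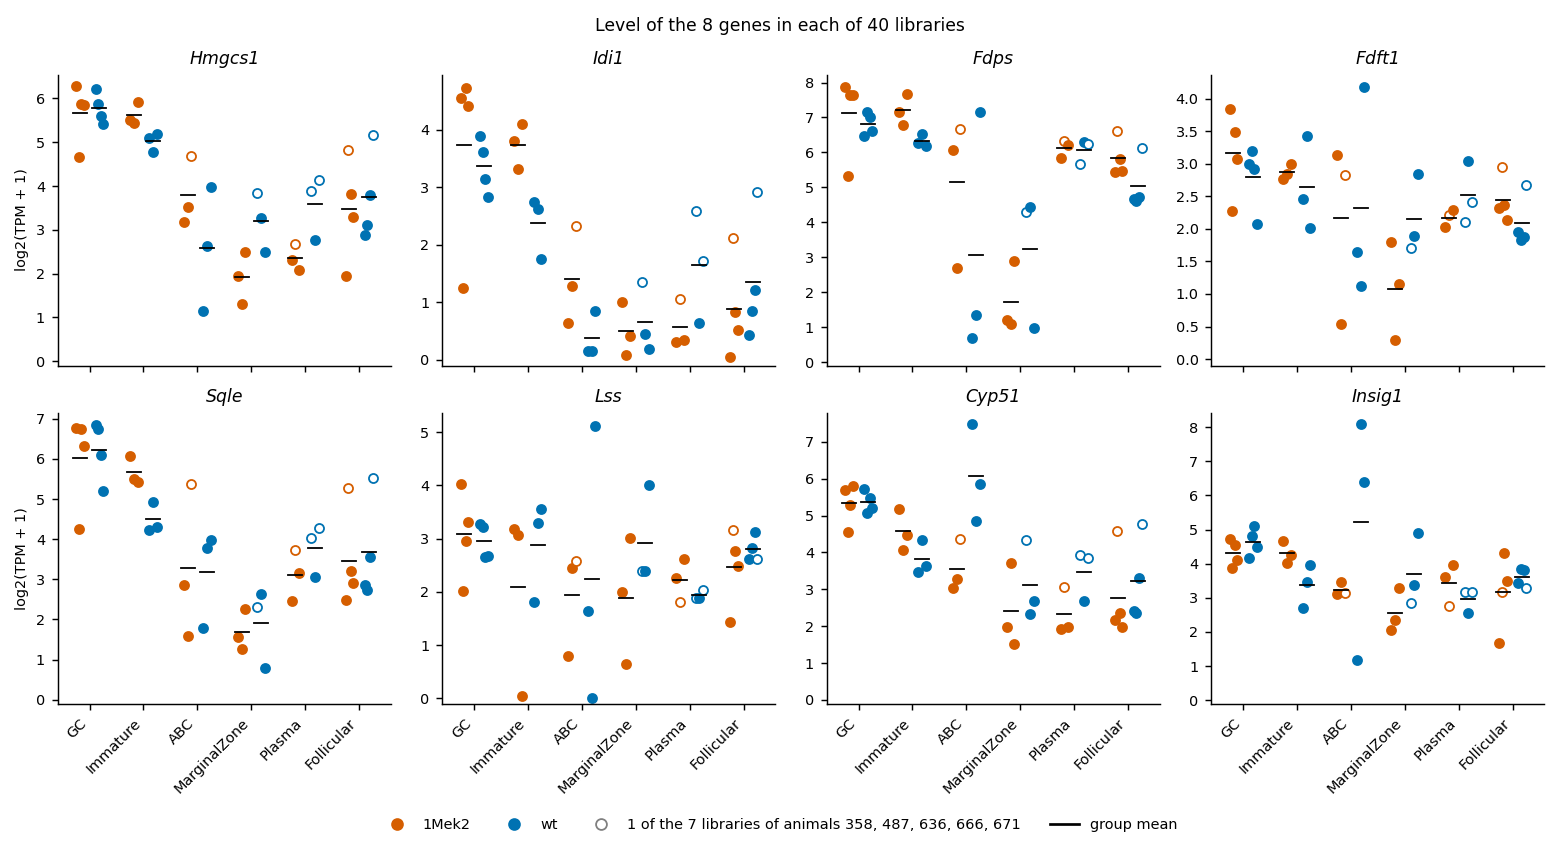
Level of the 8 genes, as log2(TPM + 1), in each of the 40 libraries (1 panel per gene, 1 point per library), by subset on the horizontal axis with 1Mek2 libraries in orange left of wt libraries in blue. Open circles are the set of 7 libraries and short lines are group means; before the log, Sqle sits between 18.1 and 114 TPM in GC cells and between 0.720 and 5.16 TPM in MarginalZone cells.

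At the low end, MarginalZone cells ranked last for 6 of the 8 genes and Plasma cells last for Lss and Insig1. Sqle had 1.96, 1.38 and 3.82 TPM in MarginalZone 1Mek2 libraries and 5.16, 3.94 and 0.720 TPM in MarginalZone wt libraries. Plasma cells had 4.50, 12.3 and 7.89 TPM of Sqle in 1Mek2 libraries and 15.3, 7.33 and 18.5 TPM in wt libraries. Most neighbours in these orders did not differ beyond the spread between libraries. Gene-span counts changed the order of some subsets for each of the 7 genes with counts. For Lss, ABC cells were above GC cells by 1.17 and Plasma cells by 0.21 on the log2 scale, without passing. For Hmgcs1, ABC cells were above Immature cells by 0.13, also without passing. On those counts Fdps was lower in Plasma than in ABC cells, with a log2 difference of -1.50 (adjusted p = 0.0170), where 30.3% of all genes differed, although its TPM was higher in Plasma cells. ABC cells were also above GC cells, by 1.62 for Fdps (0.00278) and 1.71 for Fdft1 (0.00651), where 58.6% of all genes differed. These 2 differences did not pass on exon reads (-1.06 and 0.19). Idi1 (-3.54, 0.00152) and Sqle (-2.16, 0.00215) were lower in ABC than in GC cells on counts. Both passed on exon reads too (-3.52, 0.00186 and -2.19, 0.00319), as did Hmgcs1 (-1.96, 0.00109), where 43.4% of genes differed. Between Plasma and Immature cells 0 of the 8 genes passed on these counts, where 42.1% of all genes differed. The log2 differences were 0.73 for Fdps and 0.80 for Fdft1. On exon reads Hmgcs1 was lower in Plasma cells (-1.46, adjusted p = 0.0256), where 20.8% of genes differed. Between ABC and Immature cells 4 of the 8 genes were higher in ABC cells and 1 was lower, where 59.5% of all genes differed on counts. By counts Fdps (2.22, 0.000390), Fdft1 (2.19, 0.00205) and Cyp51 (1.33, 0.0261) were higher and Idi1 (-2.64, 0.0118) was lower. By exon reads Insig1 (1.92, 0.0113) and Cyp51 (1.77, 0.0161) were higher. Idi1 (-2.70, 0.0156) and Hmgcs1 (-1.48, 0.0148) were lower there, where 40% of genes differed, and Fdps (-0.69) did not pass. On exon reads that Fdft1 difference was 0.50 and did not pass (adjusted p = 0.500). GC and Immature cells, neighbours in the order of 7 of the 8 genes, gave adjusted p between 0.300 and 0.712 (edgeR quasi-likelihood test on both genotypes, Benjamini-Hochberg over all genes), where 0.921% of all genes differed. Between Plasma and MarginalZone cells, Sqle was higher in Plasma cells by 2.62 ± 0.61 on the log2 scale (SE, adjusted p = 0.00107), and 26.7% of all genes differed between those subsets.

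The first comparison asked which of the genes were higher in GC cells, B cells that divide rapidly during an antibody response, than in resting Follicular cells. In wt mice, Sqle had 114, 106, 67.1 and 35.5 TPM in GC libraries and 6.27, 5.66, 10.8 and 44.8 TPM in Follicular libraries. The groups overlapped through 1 Follicular library, replicate 4 of animal 671, one of the set of 7. Cyp51 had 51.4, 32.5, 43.9 and 35.9 TPM in GC libraries and 4.35, 4.15, 8.89 and 26.4 TPM in Follicular libraries, without overlap. Hmgcs1 had 73.4, 57.3, 47.3 and 41.6 TPM in GC libraries and 6.42, 7.65, 12.97 and 35.1 TPM in Follicular libraries, and Fdps 87.4, 141, 129 and 97.7 TPM in GC libraries against 24.5, 23.6, 25.7 and 69.1 TPM in Follicular libraries. All 4 genes had their highest Follicular level in replicate 4.

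By gene-span counts these 4 were the ones that rose in wt GC cells, 4 of the 7 with counts, where 14.6% of 15638 genes tested were higher. The log2 fold changes were 1.84 ± 0.57 for Sqle (adjusted p = 0.0311), 1.42 ± 0.44 for Cyp51 (0.0293), 1.37 ± 0.41 for Fdps (0.0256) and 1.33 ± 0.43 for Hmgcs1 (0.0361; SE, edgeR). Reads on exons also called 4, with 9.71% of genes higher. The median over the 7 genes was 1.37, against 0.041 over all genes. TPM did not overlap between the groups, with GC higher, for 4 of the 8 genes and for 11.1% of genes of mean TPM at least 1. Insig1 had 24.6 ± 7.29 TPM in GC cells and 11.3 ± 2.29 TPM in Follicular cells (SD, n = 4 each), a log2 difference of 1.13 ± 0.44 that did not pass (adjusted p = 0.0895).

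In mice labelled 1Mek2, Sqle had 108, 107, 78.6 and 18.1 TPM in GC libraries and 4.56, 37.5, 8.21 and 6.52 TPM in Follicular libraries. Idi1 had 22.6, 25.5, 20.4 and 1.38 TPM in GC libraries and 0.0334, 3.32, 0.787 and 0.431 TPM in Follicular libraries. For both genes the groups overlapped through the GC library of animal 405 and the Follicular library of animal 636, one of the set of 7. The library of animal 405 was the lowest 1Mek2 GC library for 8 of the 8 genes. TPM overlapped for all 8 genes, while 16.1% of genes did not overlap with GC higher.

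Idi1 rose by 3.68 ± 1.11 on the log2 scale in 1Mek2 GC cells (adjusted p = 0.0253), Sqle by 2.09 ± 0.68 (0.0350), Cyp51 by 1.75 ± 0.56 (0.0319) and Hmgcs1 by 1.57 ± 0.55 (0.0482). That was again 4 of the 7 genes, where 16.3% of all genes were higher, and the median of the 7 was 1.57 against -0.0867 over all genes. Fdps had 167 ± 86.7 TPM in GC cells and 59.4 ± 25.3 TPM in Follicular cells (SD, n = 4 each) and did not pass. Fdft1 and Lss passed in neither genotype.

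The size of these differences moved with the Follicular libraries used. Against the Follicular library of animal 671 alone, wt GC cells differed by -0.000513 for Hmgcs1, 0.21 for Sqle, 0.12 for Cyp51 and 0.28 for Fdps on the log2 scale. That single library was picked after its high levels of these genes were seen, so these values are a description with no test. Without that library the same differences were 1.82, 2.81, 1.85 and 1.64 (adjusted p between 0.000151 and 0.00562), and Idi1 also passed at 2.85 (0.0174). In 1Mek2 mice, Idi1 differed by 2.17 and Sqle by 0.82 against the library of animal 636 alone, and by 5.30 (0.00562) and 3.13 (0.00290) without it. Either library was singled out for its levels of these genes. The adjusted p without it do not allow for that choice. Both libraries lay above all 6 other Follicular libraries for 6 of the 8 genes, as they did for 24% of 14121 genes. The GC and Follicular cells of 1 animal, 636, could be compared directly, with GC over Follicular TPM ratios of 2.10 for Hmgcs1 and Sqle, 6.14 for Idi1, 2.42 for Cyp51 and 1.10 for Fdft1.

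**Figure D2:**
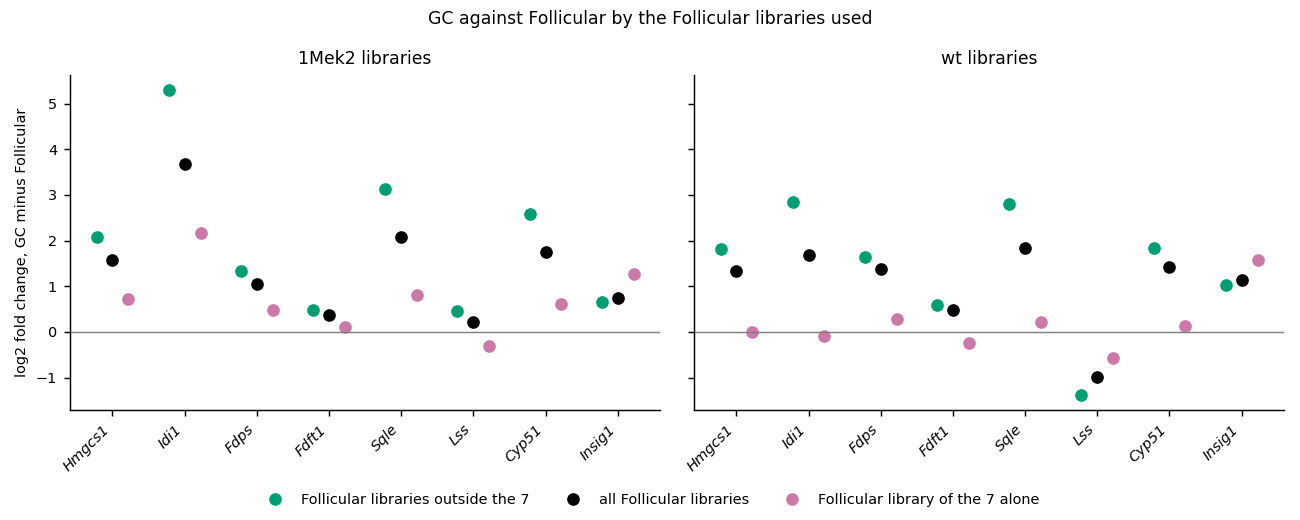
log2 fold change of GC over Follicular cells for the 8 genes (horizontal axis) in 1Mek2 mice (left) and wt mice (right), with 3 choices of Follicular reference: the libraries outside the 7 (green), all Follicular libraries (black) and the library of the 7 alone (pink). For Sqle the values are 3.13, 2.09 and 0.82 in 1Mek2 mice and 2.81, 1.84 and 0.21 in wt mice.

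These calls also moved with single libraries. Of the 8 fits that left out 1 library each, Sqle in wt passed in 6, and lost the call without GC wt replicate 1 or 2. Fdps in wt passed in 3 of 8, without GC replicate 1 or 2 or Follicular replicate 4, Cyp51 in 2 of 8, without GC replicate 2 or Follicular replicate 4, and Hmgcs1 in 1 of 8, without Follicular replicate 4. In 1Mek2 mice Hmgcs1, Sqle and Cyp51 passed in 2 of 8, without GC replicate 4 (animal 405) or Follicular replicate 2 (animal 636), and Idi1 in 3 of 8, those and the fit without Follicular replicate 1. The log2 fold changes ran from 1.05 to 5.30 over these fits, and the highest adjusted p was 0.115. With no filter on low counts, 1 gene passed in wt mice, Sqle at 1.55 (adjusted p = 0.0160), and 4 passed in 1Mek2 mice. Without GC wt replicate 4, the library of animal 565, Hmgcs1 (1.41, 0.0571), Fdps (1.32, 0.0588) and Cyp51 (1.44, 0.0567) did not pass and Sqle did (2.02, 0.0419).

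Other genes of the pathway were split. Of 14 other sterol synthesis genes, 4 rose and 0 fell in GC cells of each genotype, among them Msmo1 and Sc5d, enzymes of the late steps, and Acat2, the thiolase of the first step. The list's median was 0.382 in 1Mek2 mice and 0.901 in wt mice. Of 6 regulators of SREBP, 3 fell in 1Mek2 GC cells, Scap, Srebf1 by 1.90 and Srebf2 by 1.66 on the log2 scale. In wt GC cells 1 of the 6, Scap, fell. Of all genes tested on counts, 14.6% were lower in 1Mek2 and 10.5% in wt GC cells. In wt mice Srebf1 differed by -0.95 (adjusted p = 0.106) and Srebf2 by -0.93 (0.0945), and Insig2, the second INSIG gene, by 0.48 in wt and 0.27 in 1Mek2 mice, without passing. Whether the genotypes differed in these contrasts was not tested. Among 8 genes of sterol efflux, storage and oxysterol sensing, Abca1, which exports cholesterol, and Nr1h2, an oxysterol receptor, fell in both genotypes.

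Other differences between the same libraries went along with these. All 20 genes of a cell division list were higher in GC cells of each genotype, with a median of 5.43 in both; Kif11 (7.35) and Mki67 (6.87) led in 1Mek2 mice and Bub1 (8.95) and Mki67 (8.33) in wt mice. Their summed TPM was 1055 to 5872 in GC 1Mek2 libraries and 50.9 to 466.7 in Follicular 1Mek2 libraries, and 2922 to 5496 in GC wt libraries against 111.8 to 314.5 in Follicular wt libraries. The lowest GC sum, 1055, was that of animal 405, and the highest Follicular sums, 466.7 and 314.5, were those of animals 636 and 671. Of 16 very long genes with roles in neurons, read over introns in gene-span counts, 15 were higher in GC cells of each genotype, with a median of 4.38 in 1Mek2 mice and 5.49 in wt mice. The part of division and of the long genes in the results above was not tested; on exon reads alone, 4 of the 8 genes passed in each genotype, where 10.7% of genes in 1Mek2 mice and 9.71% in wt mice were higher.

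GC and Immature cells were compared next because 6 animals gave both. Within the animals, the GC level was above the Immature level in 6 of 6 for Sqle, Cyp51 and Idi1, as it was for 11.5% of genes of mean TPM at least 1. The ratio of GC over Immature TPM ran from 1.62 to 6.40 for Sqle with a median of 2.99, from 1.44 to 5.06 for Cyp51 with a median of 2.52, and from 1.26 to 3.28 for Idi1 with a median of 2.31. Hmgcs1, Fdps, Fdft1 and Insig1 were higher in GC cells of 5 of 6 animals, and Lss in 3 of 6.

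**Figure D3:**
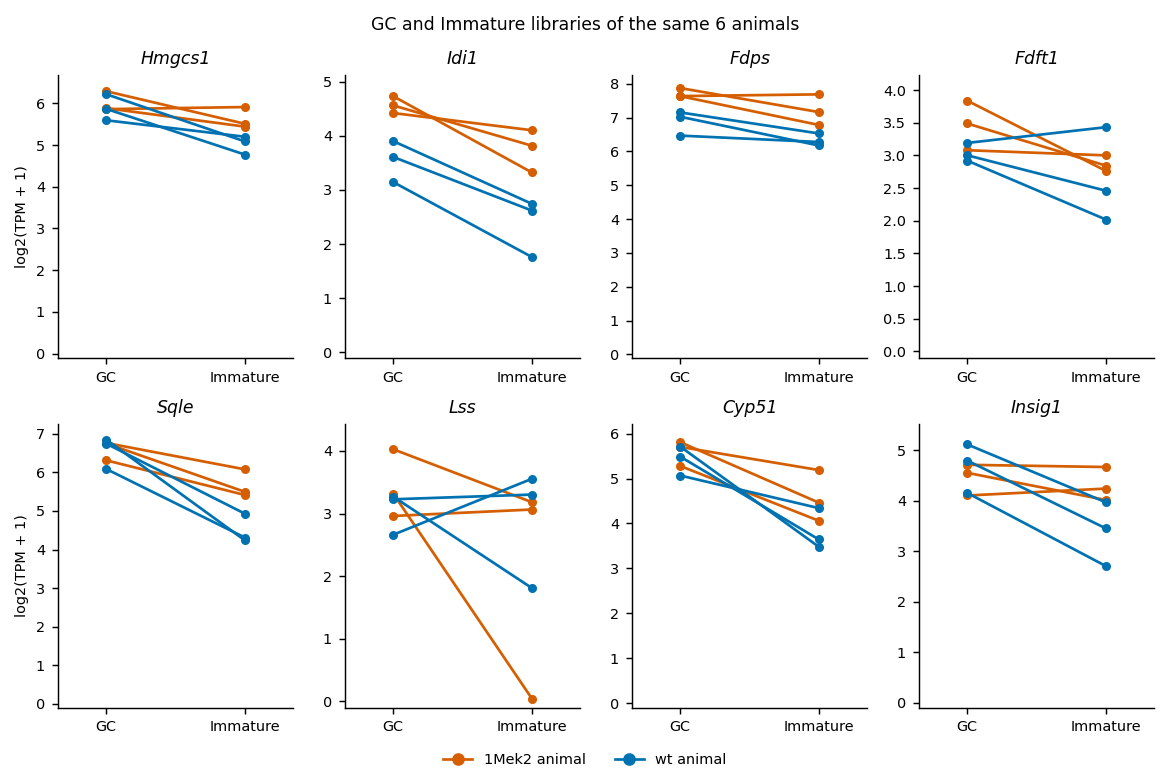
Level of the 8 genes, as log2(TPM + 1), in GC cells (left) and Immature cells (right) of the same 6 animals, 1 line per animal, 1Mek2 in orange and wt in blue. The lines are lower on the right in 6 of 6 animals for Sqle, Cyp51 and Idi1 and in 3 of 6 for Lss.

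In wt mice Sqle, at 114, 106, 67.1 and 35.5 TPM in GC libraries against 17.9, 29.5 and 18.9 TPM in Immature libraries, rose by 2.02 ± 0.55 on the log2 scale in GC cells (adjusted p = 0.0128), and Cyp51 rose by 1.78 ± 0.55 (0.0450). These were 2 of the 7 genes, where 1.94% of all genes were higher. TPM did not overlap, with GC higher, for 5 of the 8 genes and for 8.65% of all genes. With the animal as a block, Sqle gave 2.29 (0.00182) and Cyp51 1.84 (0.0306). Of 7 fits that left out 1 library, Sqle passed in 1, the fit without GC replicate 4 (animal 565, whose name conflicts; 2.17, 0.00705), and Cyp51 in 0, with adjusted p up to 0.739. With another scaling (RLE) neither passed, at 0.0548 for Sqle and 0.171 for Cyp51.

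In mice labelled 1Mek2 the same 7 genes all had positive log2 differences, with a median of 0.67. By edgeR, limma or DESeq2 0 passed, and by edgeR 0.0111% of all genes were higher. An unadjusted p under 0.05 was found for 1 of these genes and for 2107 of 17974 genes tested. With the animal as a block, Sqle passed at 1.14 (adjusted p = 0.0324). Of the 20 cell division genes, 0 passed in 1Mek2 mice and 18 were higher in wt GC cells, and of the 14 other sterol synthesis genes 0 passed in either, with medians of 0.358 in 1Mek2 and 1.01 in wt mice. Srebf1, Srebf2 and Insig2 gave -0.31, 0.26 and 0.66 in 1Mek2 mice and 1.10, 1.34 and 0.50 in wt mice, and none of these passed. The difference between the genotypes in this contrast was not tested.

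Immature cells, B cells that have not finished maturing, differed from Follicular cells in 1 gene by edgeR. In 1Mek2 mice Idi1 had 13.1, 9.001 and 16.2 TPM in Immature libraries and 0.0334, 3.32, 0.787 and 0.431 TPM in Follicular libraries, without overlap, a log2 difference of 3.05 ± 1.04 (adjusted p = 0.0419). It was 1 of the 7 genes, where 18.6% of all genes were higher, and it passed in 3 of 7 fits that left out 1 library, without Immature replicate 3 or Follicular replicate 1 or 2. On exon reads 0 of the genes passed, where 5.9% of genes were higher. An unadjusted p under 0.05 was found for 4 of them and for 4400 of 14112 genes tested. Idi1, Hmgcs1 and Sqle passed by DESeq2, by limma and with no filter on low counts, 3 genes each, and Idi1 and Hmgcs1 with another scaling (RLE). TPM did not overlap, with Immature higher, for 4 of the 8 genes and for 17.9% of genes. Without the Follicular library of animal 636, Hmgcs1 (1.89), Fdps (1.07), Sqle (2.37) and Cyp51 (1.74) passed as well. That library was singled out for its levels of these genes, and those calls do not allow for that choice. In wt mice 0 of the 7 passed by edgeR, limma or DESeq2, where 32.3% of all genes were higher. An unadjusted p under 0.05 was found for 0 of the 7 and for 9246 of 20144 genes tested. Srebf1 fell by 1.60 in 1Mek2 (adjusted p = 0.00698) and 1.61 in wt Immature cells (0.00669), and Srebf2 fell by 1.88 (0.00341) and 1.76 (0.00113), while Insig2 differed by -0.40 and 0.41 without passing.

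ABC libraries were the most uneven. In wt mice Cyp51 had 179, 28.0 and 56.8 TPM and Insig1 1.27, 269 and 83.3 TPM, while in 1Mek2 mice Cyp51 had 7.19, 8.79 and 19.7 TPM and Insig1 7.61, 10.03 and 7.90 TPM. Cyp51 was higher in ABC than in Follicular cells of the same animal in 5 of 5 animals, with ratios from 2.03 to 41.2. The other genes were not: Sqle and Insig1 were higher in 3 of 5, Hmgcs1, Idi1, Fdps and Fdft1 in 2 of 5, and Lss in 1 of 5. The share of all genes higher in 5 of 5 was not computed. By gene-span counts, Fdps was higher in wt ABC than in wt Follicular cells by 4.57 ± 0.70 on the log2 scale (adjusted p = 0.00276) and Fdft1 by 3.35 ± 1.06 (0.0465), where 11.9% of all genes were higher. Neither was called on exon reads, which gave 0.68 for Fdps and 1.58 for Fdft1 and called Cyp51 at 4.54 (0.0281) and Insig1 at 4.34 (0.0371), with 10.4% of genes higher. Of 7 fits that left out 1 library, Fdps passed in 7, and Fdft1 and Insig1 in 2, those without ABC wt replicate 1 or 3. Without the set of 7, which takes out 1 wt Follicular library, Fdps passed at 5.07 (0.00772), while Fdft1 (3.61, 0.0942), Insig1 (4.27, 0.0970) and Cyp51 on counts (3.66, 0.0636) did not. With the animal as a block, Fdft1 gave 2.53 (0.312) and Insig1 2.73 (0.409). In 1Mek2 mice 0 of the genes passed by edgeR, limma or DESeq2, and 0% of all genes were called by edgeR. An unadjusted p under 0.05 was found for 0 of them and for 1115 of 13811 genes tested. Among the listed genes with the largest changes in wt ABC cells were Lrp8, a lipoprotein receptor (8.55, adjusted p = 0.00155), and the long genes Dlg2 (9.23), Pcdh9 (7.42) and Csmd1 (7.32); Srebf2 was higher by 2.13 (0.0297; 1.08 and 0.300 on exon reads), and Srebf1 (0.69) and Insig2 (-1.93) did not pass.

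Markers of other cells were present in ABC libraries. Summed TPM of 6 markers of plasmacytoid dendritic cells was 3998 to 4974 in ABC wt and 491.9 to 892 in Follicular wt libraries, and 680.3 to 5244 in ABC 1Mek2 against 448.8 to 1054 in Follicular 1Mek2 libraries. That of 8 T cell markers was 486.3 to 895.1 in ABC wt and 58.07 to 235.2 in Follicular wt libraries, and that of 6 NK cell markers 14.63 to 565.3 in ABC wt and 13.55 to 79.4 in Follicular wt libraries. In 1Mek2 mice the T cell sums were 246.2 to 1084 in ABC and 123.5 to 386.6 in Follicular libraries. The NK cell sums there were 63.52 to 1695 in ABC and 30.39 to 162.3 in Follicular libraries. All 8 neutrophil markers were at 0 in ABC wt libraries. Their summed TPM was 102.8 to 919 in ABC 1Mek2 and 1.276 to 104.1 in Follicular 1Mek2 libraries. The part of such cells in the ABC results was not tested.

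The 2 ways of counting parted in the subsets where most Fdps reads lay outside its exons. Exon reads came to 17.4% of gene-span counts for Fdps in ABC cells and 14.9% in MarginalZone cells, against 82.2% to 96.4% in the other subsets. In ABC wt libraries Fdps had 338, 283 and 170 CPM (counts scaled to library size) over the gene span but 0.331, 0.886 and 89.7 CPM on exons. For Fdft1 the share in ABC cells was 30.7% and for Hmgcs1 45.5%. Levels given in TPM are exon levels, so they do not contain those reads.

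**Figure D4:**
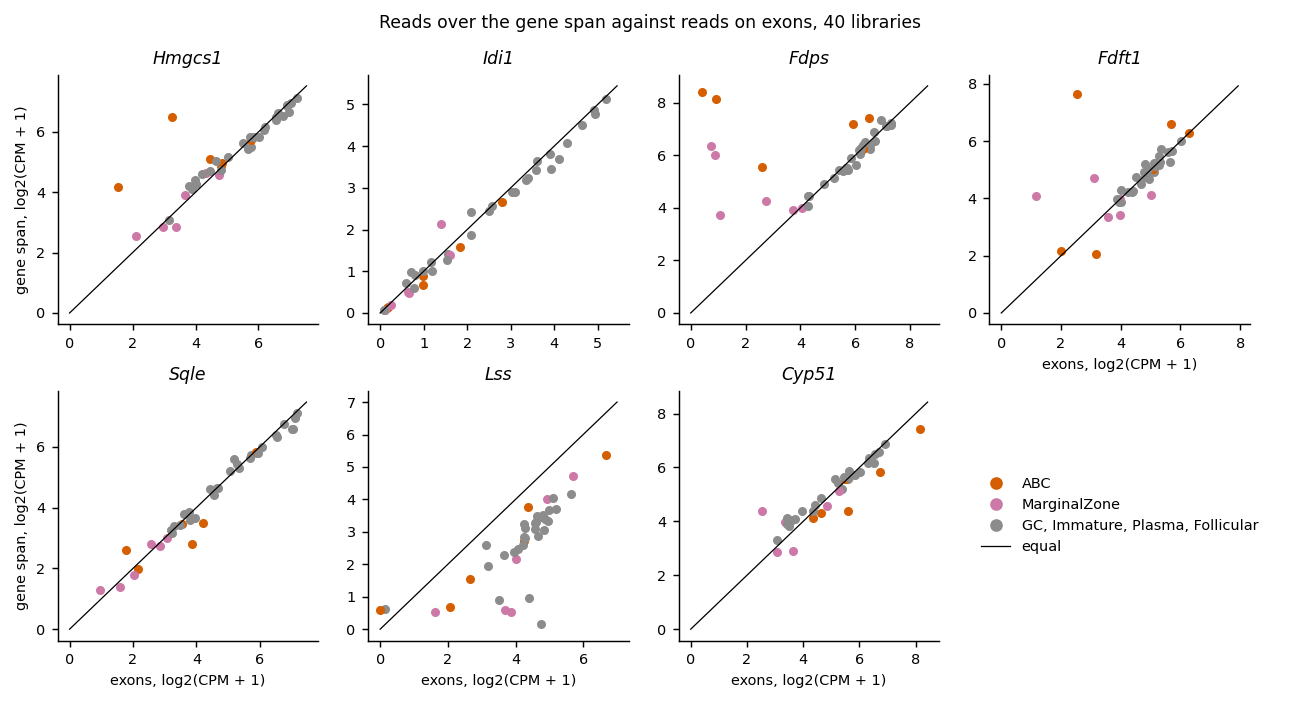
Reads over the gene span (vertical axis) against reads on exons (horizontal axis), both as log2(CPM + 1), for the 7 genes with counts, 1 point per library, ABC libraries in orange, MarginalZone libraries in pink and the others in grey; the line marks equal values. For Fdps many ABC and MarginalZone libraries lie above the line; summed over libraries, exon reads were 17.4% of gene-span counts in ABC and 14.9% in MarginalZone cells.

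Taken by genotype, MarginalZone and Plasma cells differed from Follicular cells in 0 of the genes (edgeR). In the fit over both genotypes, on counts, Sqle was lower in MarginalZone cells (-2.25, adjusted p = 0.0237), where 2.77% of all genes differed. Fdps was higher in Plasma cells (1.23, 0.0450), where 19.9% did. On exon reads Sqle passed again (-2.29, 0.0289), but Fdps in Plasma cells did not (1.36, 0.118). Fdps was lower in MarginalZone cells on exon reads (-2.74, 0.0225), where 2.27% of genes differed, against 0.27 on counts (0.868). The share of all genes that differed was 2.78% (1Mek2) and 0.34% (wt) for MarginalZone cells and 19.9% (1Mek2) and 17.7% (wt) for Plasma cells. By unadjusted p under 0.05 the counts were 1 in 1Mek2 and 1 in wt MarginalZone cells, and 1 in 1Mek2 and 2 in wt Plasma cells. Among all genes tested on counts, that threshold took in 3291 of 13398 (1Mek2) and 1272 of 14699 (wt) for MarginalZone cells. For Plasma cells it took in 4723 of 14822 (1Mek2) and 4685 of 15563 (wt). DESeq2 called 1 in 1Mek2 MarginalZone cells, 1 in 1Mek2 and 2 in wt Plasma cells, and limma called 1 in wt Plasma cells. The nearest to the threshold was Fdps in Plasma cells, with 56.1, 79.2 and 73.8 TPM in 1Mek2 libraries and 50.2, 78.3 and 74.6 TPM in wt libraries. Its log2 differences from Follicular cells were 1.30 (adjusted p = 0.0638) in 1Mek2 mice and 1.41 (0.0502) in wt mice, and the 1Mek2 one passed with the animal as a block, at 1.38 (0.0192). Within the 4 animals that gave both subsets, all 8 genes had more TPM in GC than in Plasma cells in 4 of 4, as did 51% of genes of mean TPM at least 1. Median ratios ran from 2.10 for Fdft1 to 11.2 for Idi1, and 3 of these 4 Plasma libraries belong to the set of 7. By counts over both genotypes, 2 of the 8 genes were lower in Plasma than in GC cells, Hmgcs1 (-1.56, adjusted p = 0.00530) and Sqle (-1.49, 0.0278). Of all genes 44.7% differed there, and Fdps (0.12), Fdft1 (0.33) and Lss (0.21) had small positive differences. By exon reads 4 were lower, Hmgcs1 (-1.94, 0.00177), Idi1 (-2.41, 0.0255), Sqle (-1.88, 0.0130) and Cyp51 (-1.56, 0.0305), where 30.1% of genes differed.

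Plasma libraries, sorted as B220+CD138+, also carried markers of other cells. Summed TPM of 8 neutrophil markers was 2244 to 13010 in 1Mek2 and 2589 to 9813 in wt Plasma libraries, against at most 104.1 in 1Mek2 and 3.825 in wt Follicular libraries. That of 8 T cell markers was 1142 to 1816 in 1Mek2 and 2979 to 6818 in wt Plasma libraries, against 123.5 to 386.6 and 58.07 to 235.2 in Follicular libraries of those genotypes. For 6 NK cell markers the Plasma sums were 716.3 to 1237 in 1Mek2 and 1185 to 3432 in wt libraries, for 10 markers of dendritic cells and macrophages 784.2 to 1230 and 1399 to 3907, and for 6 erythroid markers 681.3 to 1914 and 1662 to 4551. The part of such cells in the Plasma values was not tested.

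The genotypes were compared within each subset. In Immature cells Fdps had 142, 109 and 205 TPM in libraries labelled 1Mek2 and 76.6, 91.4 and 71.2 TPM in wt libraries, without overlap. Sqle had 66.7, 44.1 and 41.7 TPM in 1Mek2 libraries and 17.9, 29.5 and 18.9 TPM in wt libraries, and Hmgcs1 had 44.5, 42.4 and 59.1 TPM in 1Mek2 libraries and 33.0, 26.3 and 35.7 TPM in wt libraries. Idi1 and Insig1 did not overlap either, which made 5 of the 8 genes higher in 1Mek2 Immature cells without overlap, against 6.8% of genes of mean TPM at least 1. The 3 animals of each genotype thus separated fully for these genes.

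Only Fdps passed the test over all genes, at 1.50 ± 0.41 on the log2 scale (adjusted p = 0.0458), where 0.81% of 21115 genes were higher. Sqle gave 1.54 (0.0757), Hmgcs1 1.15 (0.210), Idi1 1.96 (0.255), Cyp51 1.13 (0.370) and Insig1 1.17 (0.366). Of the 8 genes, 6 had an unadjusted p under 0.05, as did 1840 of the 21115 genes tested on counts. The median of the 7 with counts was 1.15, against -0.174 over all genes. The Fdps call held in 2 of 6 fits that left out 1 library and was lost without wt replicate 2 (adjusted p = 0.164) or 3 (0.345) and without 1Mek2 replicate 3 (0.225) or 4 (0.599). It was not made on exon reads, where 0.246% of genes were higher, or by limma (1.46, 0.0662) or DESeq2 (1.59, 0.0580), while DESeq2 called Sqle (1.64, 0.0189) and Idi1 (2.05, 0.0277). The library of animal 565 left out for its conflicting name had 28.0 TPM of Hmgcs1, 23.3 TPM of Sqle and 66.1 TPM of Fdps, below every other 1Mek2 Immature library for these genes. Counted as 1Mek2 it ended the Fdps call (1.25, 0.636), and counted as wt it kept it (1.58, 0.0276).

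**Figure D5:**
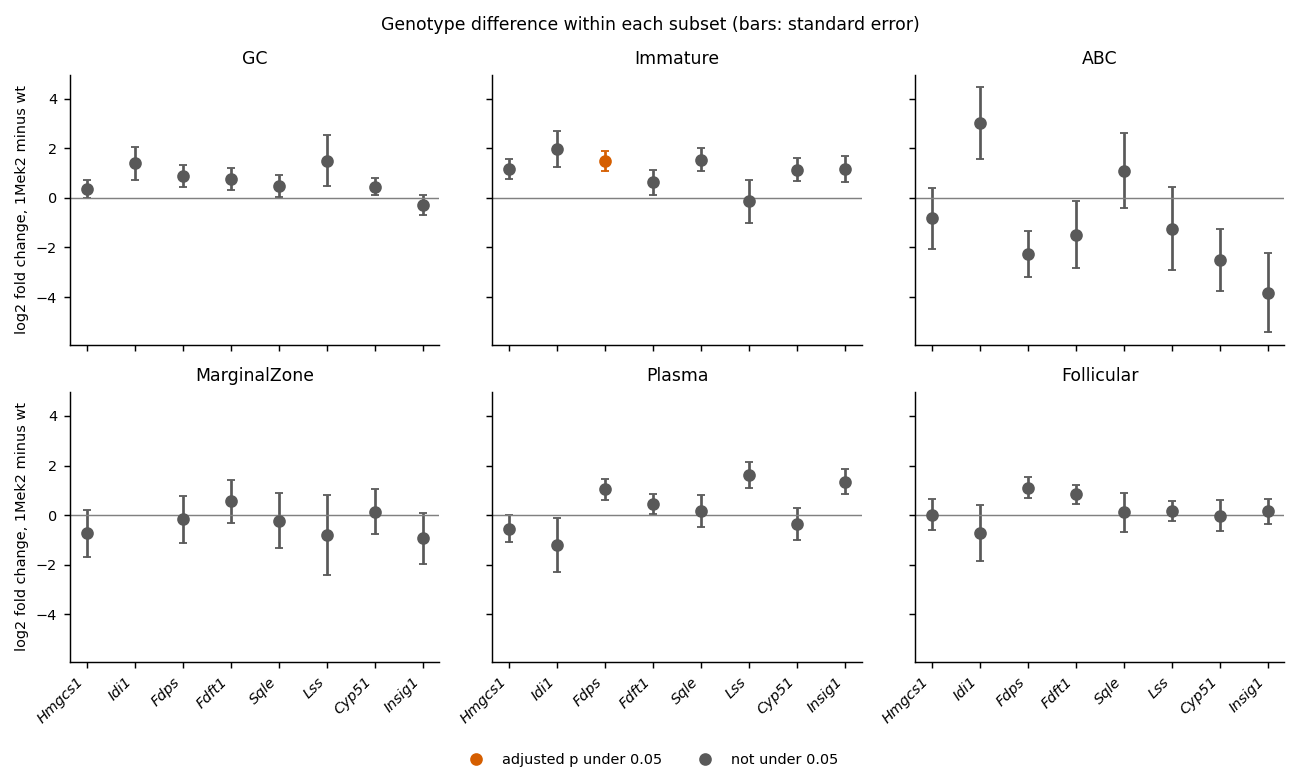
log2 fold change of 1Mek2 over wt for the 8 genes (horizontal axis), 1 panel per subset, with standard errors as bars; orange points passed at an adjusted p under 0.05 and grey points did not. Fdps in Immature cells, at 1.50, is the orange point.

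The Immature libraries also differed by genotype in genes outside the pathway. Of 20 cell division genes, 8 were higher in 1Mek2 Immature cells, among them Cdk1 (2.35), Tyms (2.11), Cdc20 (2.09) and Aurka (1.93), although 0 of the 20 passed on exon reads, and the list's summed TPM was 2611 to 2846 in 1Mek2 and 439.7 to 1651 in wt Immature libraries. Summed TPM of the 7 GC markers was 927.2 to 1092 in 1Mek2 and 117.9 to 521.8 in wt libraries, that of the 6 plasma cell markers 3013 to 6288 in 1Mek2 and 524.8 to 1520 in wt libraries, and that of the 5 Follicular markers 1303 to 2307 in 1Mek2 and 3252 to 3933 in wt libraries. None of these markers was near 0 in either group. Their part in the Fdps result was not tested. Of the 14 other sterol synthesis genes 0 passed and 13 were positive, with a median of 0.597, and Srebf1 (1.05), Srebf2 (0.26) and Insig2 (-0.10) did not pass.

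In the other subsets 0 of the genes differed between the genotypes by edgeR or limma. The share of all genes called was 0.054% in GC, 0.0605% in Plasma and 0% in ABC, Follicular and MarginalZone cells. By unadjusted p under 0.05 the number was 3 for Plasma cells and 2 for ABC cells. It was 1 each for GC and Follicular cells and 0 for MarginalZone cells. Among all genes tested on counts, that threshold took in 2285 of 14878 in Plasma and 2517 of 12583 in ABC cells. The numbers were 2017 of 16681 in GC, 1570 of 14128 in Follicular and 1132 of 12907 in MarginalZone cells. DESeq2 called 1 of the genes in ABC and 1 in Plasma cells. Cyp51 was lower in 1Mek2 ABC cells without overlap, with 7.19 to 19.7 TPM in 1Mek2 and 28.0 to 179 TPM in wt libraries. In ABC cells 8.04% of genes of mean TPM at least 1 were lower without overlap. Hmgcs1 was lower in 1Mek2 cells without overlap in MarginalZone cells, with 2.83, 1.49 and 4.64 TPM in 1Mek2 and 8.69, 13.2 and 4.65 TPM in wt libraries, and in Plasma cells, with 3.94, 5.35 and 3.22 TPM in 1Mek2 and 13.7, 5.86 and 16.7 TPM in wt libraries. The wt values of 13.2 TPM in MarginalZone and 13.7 and 16.7 TPM in Plasma cells, and the 1Mek2 value of 5.35 TPM, came from the set of 7, and without it the MarginalZone difference was -0.49 on the log2 scale (adjusted p = 0.988); for Plasma cells that leaves 1 wt library, and a term for the set gave -0.02 (0.980). Of all genes of mean TPM at least 1, 16.7% were lower without overlap in MarginalZone and 36.3% in Plasma cells. Averaged over the 6 subsets, 0 of the 8 genes differed (limma, adjusted p from 0.538 to 0.955, where 4.63% of all genes were higher). The genotype effect did not differ between subsets past the threshold for any of them (interaction, adjusted p = 0.133 for Fdps and 0.0583 for Insig1 on exon reads), where 2% of all genes passed.

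Across libraries several of the synthesis genes varied together. Over the 40 libraries the correlation of log2(TPM + 1) was 0.915 between Hmgcs1 and Idi1 and 0.905 between Hmgcs1 and Sqle. The median correlation of each gene with the other members was 0.673 for Fdps, 0.656 for Sqle and 0.605 for Hmgcs1 but 0.387 for Cyp51, 0.293 for Lss and 0.276 for Insig1. In the 28 libraries outside ABC and MarginalZone it was 0.713 for Cyp51 and 0.563 for Insig1, and Lss stayed lowest at 0.354. Around the group means, the median was 0.485 for Sqle, 0.45 for Idi1 and Fdps, 0.40 for Hmgcs1, 0.393 for Fdft1, 0.26 for Lss, 0.165 for Insig1 and 0.15 for Cyp51. Without the set of 7, over 33 libraries and with the group means left in, the median ran from 0.287 for Insig1 to 0.683 for Fdps. These values describe libraries that share subset and depth. Among 10016 genes, those most like the mean of the 8 genes were Suv39h1 (0.896), 4833439L19Rik (0.895), Prim2 (0.884), Mcm4 (0.876) and Spdl1 (0.875). Prim2 and Mcm4 act in DNA replication, Spdl1 in mitosis and Suv39h1 in histone methylation. Of the other pathway genes Acat2 was the nearest (0.830, rank 41), then Msmo1 (0.804, rank 124), while Srebf2 had 0.00608 and Scap -0.407.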

How the data were processed

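Poly(A) RNA-seq libraries of 6 sorted B cell subsets and 2 genotypes were used, grouped by their labels. The authors deposited raw read counts per gene, which for most of the genes here exceeded the reads on exons and are called gene-span counts, and TPM per exonic length. Reads were trimmed with Trim Galore 0.6.5, aligned with STAR 2.7.11a and counted with featureCounts 2.0.3, per the submitters' processing notes; strand settings are not given in the sources used here. Exon reads were recovered as whole numbers from TPM and length (100% of the values checked within 0.02 reads) and numbered 7902640 to 29204625 per library.

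Gene-span counts were tested with edgeR 4.0.16 (TMM, filterByExpr, quasi-likelihood) and Benjamini-Hochberg adjustment over all genes at 0.05; exon reads were tested likewise. The fold change is the 1Mek2 group over wt, or the subset named over Follicular or Immature cells. limma 3.58.1 (voom, animal as random block) gave the average genotype effect, and DESeq2 1.42.0 was an alternative, under R 4.3.3. The tests were tried on simulated counts. Replicates of a group came from separate animals. Animal numbers in the library names pair subsets of the same animal, and the values with the animal as a block are given where they change a call. Likeness used log2(TPM + 1) of genes of mean TPM at least 5. In each comparison, up to 4 passing genes of the lists with the largest change at 5 or more CPM were to be named with Srebf1, Srebf2 and Insig2; they are given for the comparisons where members passed; some genes of the lists are not reported here. The set of 7 libraries, defined by animal on principal component 1, replaced a planned grouping that separated only 2 ABC libraries. The 8 genes, the gene lists and the tests were chosen with earlier results of these data known.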

Additional observations from a re-analysis of the deposited data

Results flagged for a closer look

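In groups of 4 libraries, a library farther from its nearest neighbour than Dixon's 95% limit allows was looked at again; chance gives about 1 in 20 groups such a library. Follicular wt replicate 4 (animal 671) stood above the other 3 wt libraries with 6.52 TPM of Idi1, 69.1 TPM of Fdps, 5.38 TPM of Fdft1 and 44.8 TPM of Sqle. Follicular 1Mek2 replicate 2 (animal 636) stood above the other 3 with 37.5 TPM of Sqle and 22.8 TPM of Cyp51. Both belong to the set of 7 libraries defined on other genes.

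Hmgcs1 levels lay on opposite sides without overlap: every 1Mek2 library was above every wt library in Immature cells and below every wt library in MarginalZone and Plasma cells, 3 subsets in all. The closest pair, in MarginalZone cells, was 4.64 TPM in 1Mek2 and 4.65 TPM in wt libraries, and Hmgcs1 passed the test between genotypes in none of the 3 subsets. The interaction of genotype and subset did not pass for this gene (edgeR, adjusted p = 0.610).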

How the results depend on the processing

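Values here are the median log2 fold change of the 7 genes with counts. As a description with no test, with the Follicular library of the set of 7 alone as reference, Immature cells gave -0.065 in 1Mek2 and -0.62 in wt mice (reported 0.86 and 0.38), GC cells 0.61 and -0.000513 (1.57 and 1.37), MarginalZone cells -1.43 and -1.54 (-0.42 and -0.47), Plasma cells -0.87 and -0.36 (0.50 and 0.67), and 1Mek2 ABC cells -0.73 (0.51); Hmgcs1 in wt GC cells then changed sign, at -0.000513. Without the 7 libraries, Immature against Follicular cells gave 1.74 in 1Mek2 mice and ABC against Follicular cells 2.17 in wt mice (1.47); a term for them gave 2.19 for that ABC contrast and -0.053 for wt Plasma cells. Reads on exons gave 0.51 (1Mek2 against wt, ABC; reported -1.24), -0.67 (MarginalZone; -0.19), 0.68 (ABC against Follicular, wt), -1.44 (MarginalZone against Follicular, 1Mek2) and 0.79 (GC against Immature, wt; 1.17). For 1Mek2 against wt in ABC cells, limma gave -0.56 and the planned grouping -0.60. With no filter, Immature against Follicular cells in wt gave -0.23, and with animal 565 added as 1Mek2 the Immature genotype median was 0.93 (1.15). With a pseudocount of 0.1 TPM, 2 of the 5 genes most like the members were shared. The cause of these moves was not tested.

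Leaving out 1 library at a time gave, for 1Mek2 against wt, 1.17 to 1.38 in Immature, -1.17 to 0.28 in ABC, -0.26 to 0.77 in MarginalZone and -0.58 to 0.58 in Plasma cells. Against Follicular cells it gave -0.15 to 0.61 (Immature, wt), 0.66 to 1.74 (Immature, 1Mek2), 1.37 to 2.17 (ABC, wt), 0.091 to 1.28 (ABC, 1Mek2), -1.15 to -0.0043 (MarginalZone, wt), 0.27 to 1.33 (Plasma, wt) and -0.29 to 1.13 (Plasma, 1Mek2). GC against Immature cells in wt gave 0.61 to 1.21.

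Replicate numbers did not pair the genotypes: every same-numbered pair correlated above 0.1 in 1 of 6 subsets. With the number as a replicate block, Fdps (1.33, adjusted p = 0.0208) and Sqle (1.59, 0.0144) passed in Immature cells, 2 genes instead of 1. Among 2231 values of single genes compared with an alternative, 195 changed sign with neither value past the threshold.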
